A study of Mus musculus with 4 samples.

Results

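Transforming growth factor beta (TGF-beta) genes were followed across the cell classes of mouse liver and between Control and Cyr61 KO libraries. The 10 genes were taken by symbol from a fixed set, out of 32285 gene rows, and all 10 were found. They comprised the ligand genes Tgfb1, Tgfb2 and Tgfb3, the receptor genes Tgfbr1 and Tgfbr2, the signal transducer Smad3, and 4 genes that the pathway is known to induce or that restrain it, Smad7, Skil, Ski and Pmepa1. Single-cell RNA libraries on the 10x droplet platform, 2 Control and 2 KO, had been made from livers of male mice aged 24 weeks. Every animal was given a NASH diet, which models fatty liver disease with inflammation and fibrosis, for 12 weeks. Both groups carry the Cyr61fl/fl alleles, and the KO group is labelled Cyr61 KO. The labels used here name no Cre driver, so which cells lost Cyr61 is not known from them. Livers were stored in serum with DMSO, thawed, digested, and depleted of dead cells on a column before capture.

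TGF-beta ligands are secreted in a latent form and have to be released before they bind. The active ligand is bound by the type II receptor, which recruits and phosphorylates the type I receptor. That receptor then phosphorylates SMAD3 and its close relative SMAD2, which enter the nucleus with SMAD4 and switch genes on or off. In the liver the pathway is known for driving matrix production by stromal cells, and in lymphocytes for restraining activation and supporting tissue residency.

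Depth and identity checks were as follows. The deposited libraries held 4852 to 7253 barcodes and 8290677 to 20537236 unique molecular identifiers (UMIs, each standing for 1 captured molecule), and 22930 cells passed the filters. Median depth per kept cell was 1205 UMIs in Control 1, 2205 in Control 2, 1848 in KO 1 and 2839 in KO 2. Cyr61 is listed under its current symbol Ccn1. Over all deposited barcodes it gave 184 and 149 UMIs in Control 1 and Control 2, none in KO 1 and 12 in KO 2. Cells were assigned from marker genes, none of which was among the 10 genes, and the classes are called here by the short form of names such as T-cell-like. T cells (9607), B cells (6220), natural killer and innate lymphoid cells (2062), monocytes and macrophages (1421) and neutrophils (428) had enough cells in every library to be tested. Conventional dendritic cells (251), plasmacytoid dendritic cells (137) and stromal cells (327) had not. The stromal class combined mesothelial markers such as Msln and Upk3b with fibroblast markers such as Dcn and Lum, and the stellate cell marker Lrat was at 0 UMIs there. It made up 6.03% of cells in Control 1 (exact binomial 95% interval 5.35% to 6.76%), 0.809% in Control 2 (0.609% to 1.05%) and none of 6740 and 4987 cells in KO 1 and KO 2, which allows shares of up to 0.0445% and 0.0602%. Intervals and limits of this kind cover counting error only. In clusters built from expression without the gates, the one named stromal held 315 and 66 cells in Control 1 and Control 2. It held 1 and 2 cells in KO 1 and KO 2. The gates left another 2316 cells unassigned. Pairs of libraries shared 6 to 22 cell barcodes. Levels are given in CPM, the UMIs of a gene scaled to 1000000 UMIs of the same cells.

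The ligand genes divided by cell class, and the sequences upstream of 2 of them are shown because Tgfb1 was found throughout the leukocytes and Tgfb2 almost wholly in stromal cells. On GRCm38 (GENCODE M21) Tgfb1 spans chromosome 7 from 25687002 to 25705077, Tgfb2 chromosome 1 from 186622792 to 186705989, Tgfb3 chromosome 12 from 86056745 to 86079041, Skil chromosome 3 from 31095058 to 31122577 and Pmepa1 chromosome 2 from 173224458 to 173276533, all protein-coding. The RefSeq promoter table (GRCm38.p6) held entries for 6 of the 10 genes. Each window has 250 bases, ends just before the annotated start, and is printed 5′ to 3′ on the gene's strand. Tgfb1 lies at chr7:25686752-25687001 on the plus strand and Tgfb2 at chr1:186705990-186706239 on the minus strand. Capitals mark matches on either strand to the SMAD box CAGAC or to the GC box GGGCGG.
Tgfb1: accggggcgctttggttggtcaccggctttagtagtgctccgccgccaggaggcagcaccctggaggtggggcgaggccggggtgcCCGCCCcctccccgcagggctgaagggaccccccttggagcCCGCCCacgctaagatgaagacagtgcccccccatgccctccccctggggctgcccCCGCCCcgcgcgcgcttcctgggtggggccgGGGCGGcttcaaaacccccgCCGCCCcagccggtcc
Tgfb2: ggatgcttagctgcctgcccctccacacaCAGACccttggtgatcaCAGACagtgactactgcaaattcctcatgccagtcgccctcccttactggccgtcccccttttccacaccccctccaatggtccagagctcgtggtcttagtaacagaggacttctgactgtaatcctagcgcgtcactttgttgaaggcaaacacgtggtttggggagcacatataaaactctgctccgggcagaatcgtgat
The Tgfb1 window had a GC content of 75.2%, held 5 GC boxes and no SMAD box. The Tgfb2 window had a GC content of 53.6%, held 2 SMAD boxes and no GC box. Over all 32851 windows of that length the median GC content was 52.4%, and 42.2% held the SMAD box and 32.7% the GC box, so that neither motif sets these windows apart by its presence. No AP-1 site (TGACTCA) and no cAMP response element (TGACGTCA) was found in the windows of the 6 genes. The windows of Tgfbr1 at its upstream start, Ski and Smad3 held 2, 5 and 2 GC boxes, and those of Tgfbr2 and the downstream start of Tgfbr1 held 1 SMAD box each. A match shows only that the letters are there.

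**Figure D1:**
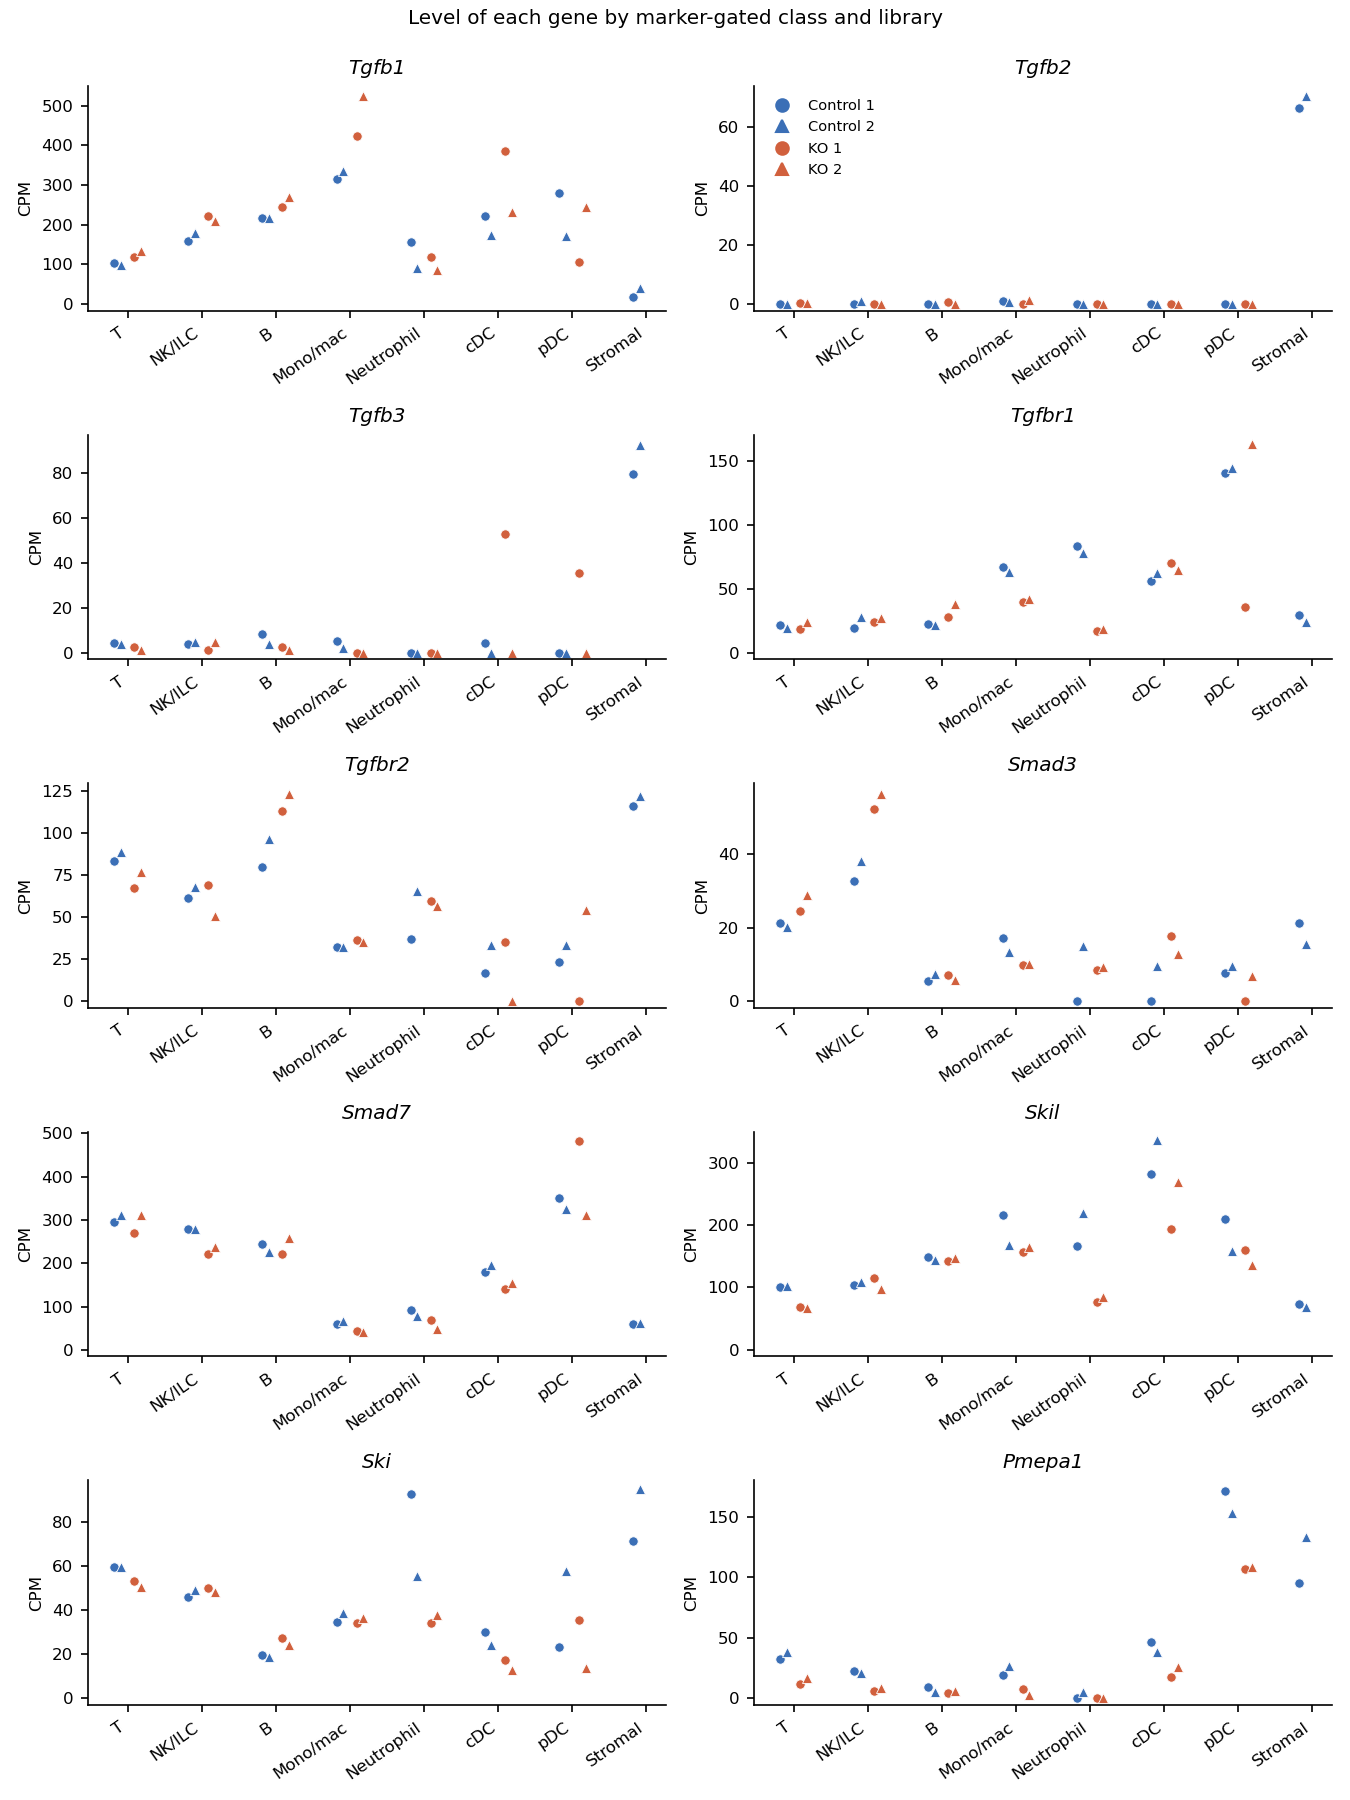
Level of each gene in CPM (vertical axis, linear, a separate scale for each gene) in 8 marker-gated classes (horizontal axis). Each point is 1 library, blue for Control and orange for KO, circles for replicate 1 and triangles for replicate 2. The marker gate found stromal cells in Control only. Tgfb2 and Tgfb3 stand highest in stromal cells at 66.6 to 92.5 CPM, and Tgfb1 stands highest in monocytes and macrophages at 314 to 524 CPM.

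Tgfb1, the ligand most used by immune cells, was highest in monocytes and macrophages. There it stood at 314 and 335 CPM in the Control libraries and at 424 and 524 CPM in the KO libraries. In T cells it was 103 and 98.7 against 119 and 135 CPM, in natural killer and innate lymphoid cells 159 and 180.2 against 221 and 209 CPM, and in B cells 217 and 217 against 244 and 269.6 CPM. In plain CPM, all KO values therefore lay above all Control values in these 4 classes, before the scaling between libraries that the tests apply. How many of all genes separate in this way was not counted. Neutrophils overlapped, with 157.6 and 90.6 against 119.8 and 84.7 CPM, and stromal cells were lowest at 18.2 and 39.6 CPM. Because each class was tested against the mean of the other 4, with the library as a block, the order could be tested apart from the KO. By edgeR's quasi-likelihood test with Benjamini-Hochberg adjustment, Tgfb1 was higher in monocytes and macrophages by 1.35 ± 0.09 on the log2 scale (SE, adjusted p = 8.06e-15) and in B cells by 0.46 ± 0.09 (adjusted p = 3.57e-05). It was lower in T cells (-0.86 ± 0.09, adjusted p = 2.01e-09) and in neutrophils (-0.75 ± 0.16, adjusted p = 0.00027). In such contrasts, in either direction, 53.8% of all 9680 genes were called for monocytes and macrophages, 59.9% for B cells, 56.5% for T cells, 45.2% for neutrophils and 42.2% for natural killer and innate lymphoid cells. A difference between classes is thus the common state of a gene in these data.

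The KO effect on Tgfb1 did not pass the threshold in any class. The difference was 0.45 ± 0.18 on the log2 scale in monocytes and macrophages (edgeR adjusted p = 0.3; 95% interval 0.10 to 0.80), 0.29 ± 0.13 in T cells (adjusted p = 0.352), 0.18 ± 0.17 in natural killer and innate lymphoid cells (adjusted p = 0.75) and 0.12 ± 0.13 in B cells (adjusted p = 0.778). Within classical monocytes, a subset gated on further markers, Tgfb1 was 299.7 and 294 CPM in Control and 401 and 485 CPM in KO. That difference, 0.44 ± 0.20, missed the threshold too (adjusted p = 0.467). C1q macrophages of the Control livers stood at 233 and 235 CPM, and the KO libraries had only 8 and 2 such cells.

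Tgfb2 was a stromal gene in these libraries. Of its 172 UMIs over all kept cells, 152 (88.4%) lay in the 327 stromal cells, where the level was 66.6 CPM in Control 1 and 70.4 CPM in Control 2. T cells gave 0, 1, 2 and 2 UMIs in Control 1, Control 2, KO 1 and KO 2, and neutrophils and both dendritic classes gave none. The gene failed the low-count filter in all 5 tested classes, so the main fits gave no KO test within a class for it. In the Control libraries alone, a comparison added after the data had been seen, stromal cells were higher than the mean of 7 other classes by 8.54 ± 0.54 on the log2 scale (edgeR adjusted p = 2.57e-32). The same contrast called 34.8% of 10457 genes higher in stromal cells and 23% lower.

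Tgfb3 shared the stromal peak and had a second, smaller site. Its 363 UMIs were divided between stromal cells (189), T cells (78), B cells (37), natural killer and innate lymphoid cells (17) and others. Stromal cells reached 79.5 and 92.5 CPM, with a difference of 5.96 ± 0.39 on the log2 scale from the other classes of the Control libraries (edgeR adjusted p = 3.14e-31). Among the T cells of the Control livers, the gamma-delta subset, which carries the alternative T cell receptor, held much of the gene. It gave 6 UMIs (24.2 CPM) in Control 1 and 18 UMIs (39.7 CPM) in Control 2, against 1 UMI in each KO library (3.19 and 2.75 CPM). The summed level was 11.6-fold higher in Control with a 95% counting interval of 2.88 to 101. The low-count filter removed the gene in that subset, so the main fit gave no replicate test of this ratio. The alternative with no filter did fit it, and that value is not reported here. Cd8 T cells held 0.203 to 1.42 CPM in the 4 libraries, in overlapping groups. For T cells as a whole the levels were 4.25 and 3.78 CPM in Control and 2.72 and 1.08 CPM in KO (log2 difference -1.14 ± 0.48, edgeR adjusted p = 0.318). The gamma-delta share of T cells itself was 10.1% and 5.55% in Control and 3.51% and 3.70% in KO; its part in the T cell value was not tested. In B cells Tgfb3 was 8.40 and 4.05 against 2.30 and 1.18 CPM (-1.61 ± 0.59, adjusted p = 0.273), from 37 UMIs in all. Monocytes and macrophages gave 5 and 4 UMIs in Control and none in KO, which makes the level at least 1.85-fold higher in Control when 3 counts over the KO group are taken as the limit. All 4 of the Control 2 UMIs lay in C1q macrophages, and with that subset left out, an alternative chosen after seeing the data, Control 1 kept 5 UMIs and the other 3 libraries had none.

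Summed over all kept cells, Tgfb2 and Tgfb3 were lower in KO. Tgfb2 was 11.7 and 3.96 CPM in Control and 0.324 and 0.177 CPM in KO, and Tgfb3 was 17.9 and 8.18 against 2.85 and 1.71 CPM. The Control values lay above the KO values for both genes, and Control 1, the library with the most stromal cells, was the highest. The log2 differences were -4.83 ± 0.68 (edgeR adjusted p = 0.0196) and -2.42 ± 0.43 (adjusted p = 0.0296), where 7.58% of all 14181 genes tested were called lower. In such sums fewer cells of a type and less RNA per cell cannot be told apart. Once stromal cells were left out, Tgfb2 no longer passed the count filter and Tgfb3 differed by -0.92 (adjusted p = 0.215), and the share of genes called lower was 1.15%. With either KO library left out the adjusted p of Tgfb2 was 0.0748 or 0.101, and that of Tgfb3 was 0.0846 or 0.155. Tgfb1 summed in the same way was 150.4 and 154 CPM in Control and 193 and 199.3 CPM in KO (log2 difference 0.40 ± 0.14, adjusted p = 0.139).

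**Figure D2:**
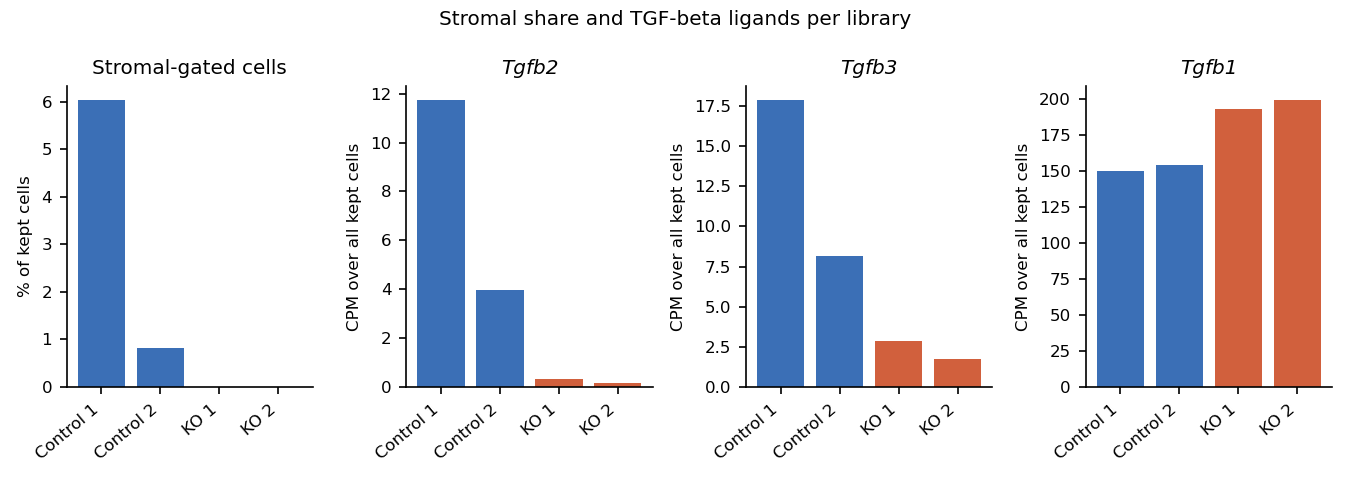
Share of stromal-gated cells in percent of kept cells (left) and level of Tgfb2, Tgfb3 and Tgfb1 in CPM over all kept cells, 1 bar for each library, blue for Control and orange for KO. Stromal cells make up 6.03% and 0.809% of the Control libraries and none of the KO libraries, and Tgfb2 and Tgfb3 stand highest in Control 1, whereas Tgfb1 lies between 150.4 and 199.3 CPM.

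The receptor genes differed by class. Tgfbr1, the type I receptor kinase, was highest on average in plasmacytoid dendritic cells, with 140.4 and 144 CPM in Control and 35.7 and 163 CPM in KO, the low value resting on 2 UMIs. Conventional dendritic cells held 55.6 to 70.3 CPM and overlapped with monocytes and macrophages and with neutrophils. Against the mean of the other tested classes, Tgfbr1 was higher in neutrophils by 1.20 ± 0.33 on the log2 scale (edgeR adjusted p = 0.00393) and in monocytes and macrophages by 0.81 ± 0.18 (adjusted p = 0.000244), and lower in T cells (-0.88 ± 0.16, adjusted p = 1.62e-05). The neutrophil call rested on Control 2, without which it was 0.50 (adjusted p = 0.435). Tgfbr2, the type II receptor that binds ligand first, had another order. B cells stood at 79.8 and 96.9 against 113 and 124 CPM and T cells at 83.9 and 89.0 against 67.6 and 77.1 CPM, while monocytes and macrophages held 32.5 to 36.4 CPM. Tgfbr2 was higher in B cells by 0.96 ± 0.11 (adjusted p = 8.72e-09) and in T cells by 0.43 ± 0.11 (adjusted p = 0.00119), and lower in monocytes and macrophages (-1.13 ± 0.16, adjusted p = 2.05e-07). In stromal cells it was 117 and 122 CPM, above the mean of the other classes of the Control libraries by 1.18 ± 0.18 (adjusted p = 2.82e-09).

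No receptor change in KO passed the threshold within a class. For Tgfbr1 the largest difference among the 4 classes where it was tested was in monocytes and macrophages, where 67.1 and 62.9 CPM in Control stood above 39.7 and 41.6 CPM in KO without overlap (log2 difference -0.76 ± 0.24, edgeR adjusted p = 0.15; 95% interval -1.23 to -0.29). By subset, classical monocytes held 33.6 and 24.7 against 34.5 and 27.5 CPM (0.05 ± 0.37, adjusted p = 0.974), and patrolling monocytes and C1q macrophages of the Control livers held 113 and 115 CPM and 95.7 and 152 CPM. The classical share of the class was 29.9% and 38.4% in Control and 59.6% and 67.9% in KO, and the C1q share 18.7% and 10.2% against 2.81% and 1.28%. With C1q macrophages left out, Tgfbr1 in the class was 56.8 and 51.4 CPM in Control and 36.5 and 41.7 CPM in KO, still without overlap, and the difference was -0.55 (adjusted p = 0.475). The part of the classical share in it was not tested. Neutrophils gave 83.5 and 78.0 CPM in Control against 17.1 and 18.8 CPM in KO, each KO value from 2 UMIs, and the gene failed the filter there. In B cells Tgfbr1 went the other way, from 22.4 and 21.6 to 28.1 and 37.9 CPM (0.46 ± 0.21, adjusted p = 0.401). Tgfbr2 in T cells differed by -0.31 ± 0.14 (adjusted p = 0.341), and in B cells by 0.25 ± 0.14 (adjusted p = 0.516).

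Whether a KO effect differed between classes was tested directly, as the effect in a class minus the mean effect in the other 4. Of 40 such differences over 8 genes, 1 passed the threshold, that of Tgfbr1 in B cells, at 1.31 ± 0.27 on the log2 scale (edgeR adjusted p = 0.0214). Over all genes 0.124% were called in B cells, 0.3% in T cells, 0.114% in natural killer and innate lymphoid cells, 0.403% in monocytes and macrophages and 0.196% in neutrophils. The call was lost without Control 2 (adjusted p = 0.518), KO 1 (0.206) or KO 2 (0.913). Tgfbr1 in neutrophils had the opposite sign (-2.33 ± 0.60, adjusted p = 0.0871). None of the differences for Pmepa1 passed, and their SEs of 1.11 to 6.49 were wide. The call of Pmepa1 in some classes and not in others, described next, is therefore not shown to be a difference between classes.

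Pmepa1 was the only one of the 10 genes called between KO and Control within a class, and it was lower in KO each time. It encodes a membrane protein induced by TGF-beta that binds SMAD proteins and dampens the pathway. T cells gave 93 and 362 UMIs in Control and 89 and 155 in KO, or 32.9 and 38.0 CPM against 12.1 and 16.8 CPM. The log2 difference was -1.36 ± 0.18 (edgeR adjusted p = 0.0154), where 0.469% of 11503 genes were called lower in T cells. Natural killer and innate lymphoid cells held 23.0 and 20.8 CPM in Control and 6.10 and 8.30 CPM in KO (-1.71 ± 0.43, adjusted p = 0.0414, with 0.689% of genes called lower). Monocytes and macrophages held 19.3 and 27.0 CPM against 7.73 and 2.52 CPM (-2.23 ± 0.49, adjusted p = 0.0279, with 1.48% of genes called lower). Control and KO libraries did not overlap in any of these 3 classes. In B cells they did, at 9.80 and 5.13 against 4.61 and 6.12 CPM (-0.32 ± 0.43, adjusted p = 0.825; 95% interval -1.16 to 0.51), and neutrophils gave 2 UMIs in all.

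These calls were of unequal strength. That in T cells held in all 13 alternatives run, with adjusted p from 1.81e-19 to 0.0481. That in natural killer and innate lymphoid cells rests on 58 UMIs and was lost in 9 of 12, among them each left-out library (adjusted p from 0.138 to 0.194). That in monocytes and macrophages rests on 76 UMIs and was lost in 5 of 13, with DESeq2 (adjusted p = 0.281), without Control 2 (0.193) and without KO 2 (0.0884) among them.

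**Figure D3:**
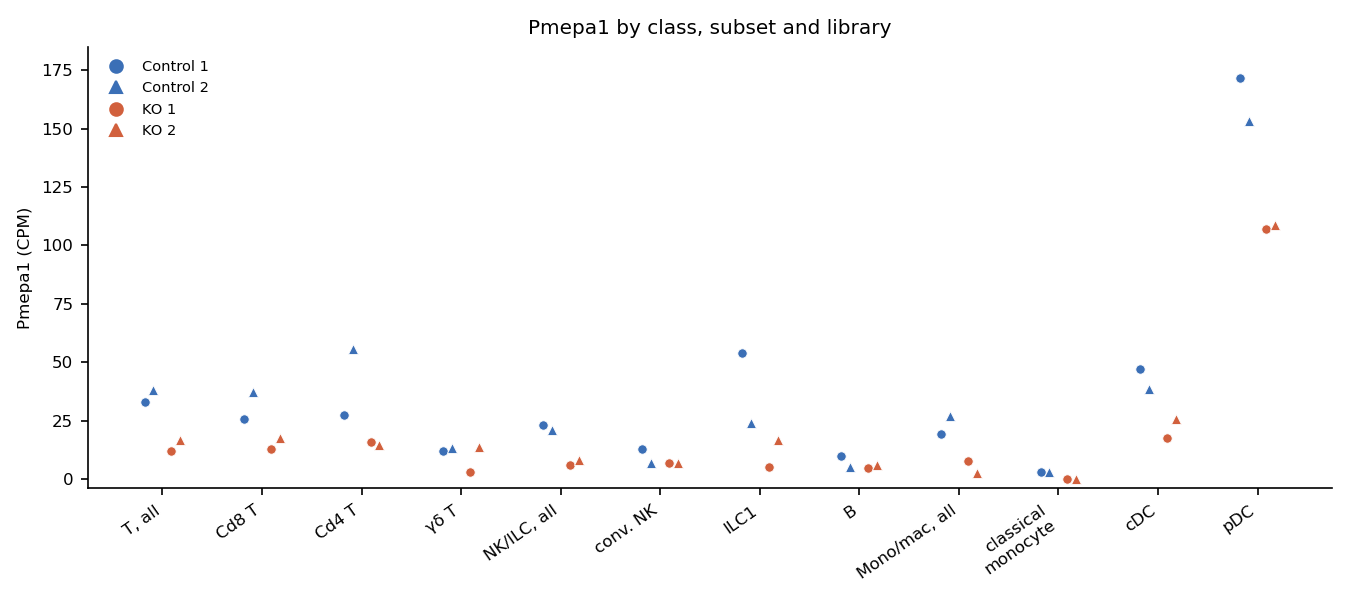
Pmepa1 in CPM (vertical axis, linear) by class and by gated subset (horizontal axis), 1 point for each library, blue for Control and orange for KO. The KO points lie below the Control points in T cells, Cd8 and Cd4 T cells, natural killer and innate lymphoid cells, type 1 innate lymphoid cells, monocytes and macrophages and both gated dendritic classes, and overlap them in B cells, gamma-delta T cells and conventional natural killer cells; classical monocytes hold 0 to 3.09 CPM.

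Within T cells the lower level was spread over subsets and clusters. Cd8 T cells held 25.7 and 37.3 CPM in Control and 13.04 and 17.5 CPM in KO, and Cd4 T cells 27.3 and 55.6 against 16.0 and 14.6 CPM. These differences, -1.18 ± 0.23 and -1.72 ± 0.40, did not pass the threshold over all genes of the subset (edgeR adjusted p = 0.0813 and 0.0903). They passed in 4 of 13 alternatives each, among them without Control 1, the library with the fewest UMIs (adjusted p = 1.57e-09 and 6.22e-05). Without Control 2 they shrank to -0.73 and -0.79 and were not called. Nor were they without KO 1, without KO 2 or with DESeq2, and over the 13 alternatives the adjusted p reached 0.595 in Cd8 and 0.999 in Cd4 T cells. Gamma-delta T cells overlapped, at 12.1 and 13.2 against 3.19 and 13.7 CPM, and Foxp3 T cells had 10 UMIs in all. In clusters built without the gates (Leiden), the mean was lower in KO in 8 of 9 T cell clusters, and both KO values lay below both Control values in 7. These clusters divide the same 4 libraries and are not replicates. How many of all genes reach such counts was not computed. Some of the 7 rest on few UMIs, such as 4 and 12 in Control against 5 and 6 in KO in cluster 2. Cluster 7 gave 3 and 26 UMIs in Control against 4 and 12 in KO. In the T cell cluster with the most Control 2 cells, Pmepa1 went from 41.0 and 38.7 CPM to 12.9 and 22.6 CPM. Stromal marker RNA outside the stromal class also moved with the groups: 15 markers summed to 7.78 and 4.52 CPM in Control T cells and to 1.496 and 0.867 CPM in KO T cells, with 3 and 11 of the 15 at 0. Neutrophil markers moved as well, with 7 of them summing to 117 and 546 CPM in Control T cells and to 41.3 and 29.6 CPM in KO T cells, and none at 0 in either group. Of 13 lists of markers chosen for other cell types, 6 were lower in KO T cells without overlap, 5 were higher and 2 overlapped. Listed genes, such as Ccr7 among the conventional dendritic markers, were not required to be absent from T cells. The sums were not split by gene, so RNA made by T cells themselves is not told apart from RNA of other cells. The lower ones included plasmacytoid dendritic markers, from 106 and 123 to 95.9 and 96.9 CPM. The higher ones included conventional dendritic markers, from 84.2 and 94.9 to 228 and 265 CPM, plasma cell markers, from 43.9 and 40.2 to 103 and 123 CPM, and erythroid markers, from 86.0 and 14.8 to 373 and 386 CPM. The part of these lists in the Pmepa1 difference was not tested.

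In the myeloid class the Pmepa1 reads lay mainly in C1q macrophages. These gave 11 and 37 of the 19 and 48 Control UMIs, at 42.1 and 181 CPM, whereas classical monocytes gave 4 UMIs over both Control libraries and none in KO. KO livers yielded 8 and 2 C1q macrophages, with 4 and 0 UMIs of the gene. With C1q macrophages left out, the class held 11.1 and 6.99 CPM in Control and 3.43 and 2.53 CPM in KO, from 19 and 5 UMIs. The groups did not overlap, and the gene then failed the filter, so no test was had. In the whole class, 15 stromal markers summed to 18.3 and 3.93 CPM in Control and were all at 0 in KO. The 5 cholangiocyte markers Epcam, Krt7, Krt8, Sox9 and Spp1 summed to 166 and 237 against 5.52 and 3.78 CPM. Sox9 was at 0 in Control, and Epcam, Krt8 and Sox9 were at 0 in KO. That sum was not split by gene, so RNA of the class's own cells is not told apart from RNA of other cells. The 7 neutrophil markers summed to 316 and 223 against 137 and 126 CPM. Plasmacytoid dendritic markers went from 313 and 304 to 219 and 291 CPM and conventional dendritic markers from 219.6 and 260.2 to 159 and 202 CPM. Of the 13 lists, 6 were lower in KO without overlap, and 1, mast cell markers, was higher. The part of these lists in the Pmepa1 difference was not tested.

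In natural killer and innate lymphoid cells, type 1 innate lymphoid cells held 54.1 and 23.8 against 5.05 and 16.7 CPM of Pmepa1, and conventional natural killer cells 13.01 and 6.81 against 6.69 and 6.84 CPM. Of the 12 and 23 Control UMIs of the class, 4 and 8 came from the former and 1 and 2 from the latter, and the others from cells in neither subset. Conventional natural killer cells were 12.6% and 21.1% of the class in Control and 32.0% and 45.9% in KO; their part in the class value was not tested. Plasmacytoid dendritic markers in this class went from 97.8 and 119.6 to 59.6 and 59.3 CPM, with 1 of 7 at 0 in Control and 3 in KO. Neutrophil markers went from 105.4 and 179 to 58.9 and 27.3 CPM, and stromal markers from 5.75 and 4.53 to 0.677 and 0 CPM, with 14 of 15 at 0 in KO. The 7 T cell markers went from 953 and 917 to 836 and 740 CPM, with none at 0 in either group. Of the 13 lists, 5 were lower in KO without overlap and none was higher. Listed genes were not required to be absent from this class, and the sums were not split by gene. The part of these lists in the class value was not tested.

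Levels of Pmepa1 were highest in plasmacytoid dendritic and stromal cells. Plasmacytoid dendritic cells held 172 and 153 CPM in Control and 107 and 109 CPM in KO, on 76 UMIs, and stromal cells 95.4 and 133 CPM. In the Control libraries alone these classes were above the mean of the others by 2.71 ± 0.30 (edgeR adjusted p = 5.75e-14, with 9.41% of genes called higher) and 2.22 ± 0.20 (adjusted p = 8.2e-21). Conventional dendritic cells held 47.0 and 38.4 against 17.6 and 25.7 CPM. The KO values were the lower ones in both gated dendritic classes, on 6 and 16 UMIs in plasmacytoid and 1 and 2 UMIs in conventional dendritic cells. Each class had under 20 cells in a KO library and was not tested. In the clusters of these names the groups overlapped, at 195 and 159 against 201.4 and 102 CPM in the plasmacytoid cluster and at 45.7 and 32.6 against 45.7 and 16.9 CPM in the conventional one. The conventional cluster held 864 cells against 251 gated ones, so most of its cells lay outside the gated class. Its cells had a mean of 1.6 conventional dendritic markers, near the 1.5 needed for the name. Over all kept cells Pmepa1 was 42.6 and 34.4 against 9.78 and 13.4 CPM (-1.68 ± 0.18, adjusted p = 0.0142). Without stromal cells the difference was -1.40 (adjusted p = 0.0228), so it was lower in KO with and without that class. With KO 1 or KO 2 left out the adjusted p was 0.0698 or 0.0534.

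**Figure D4:**
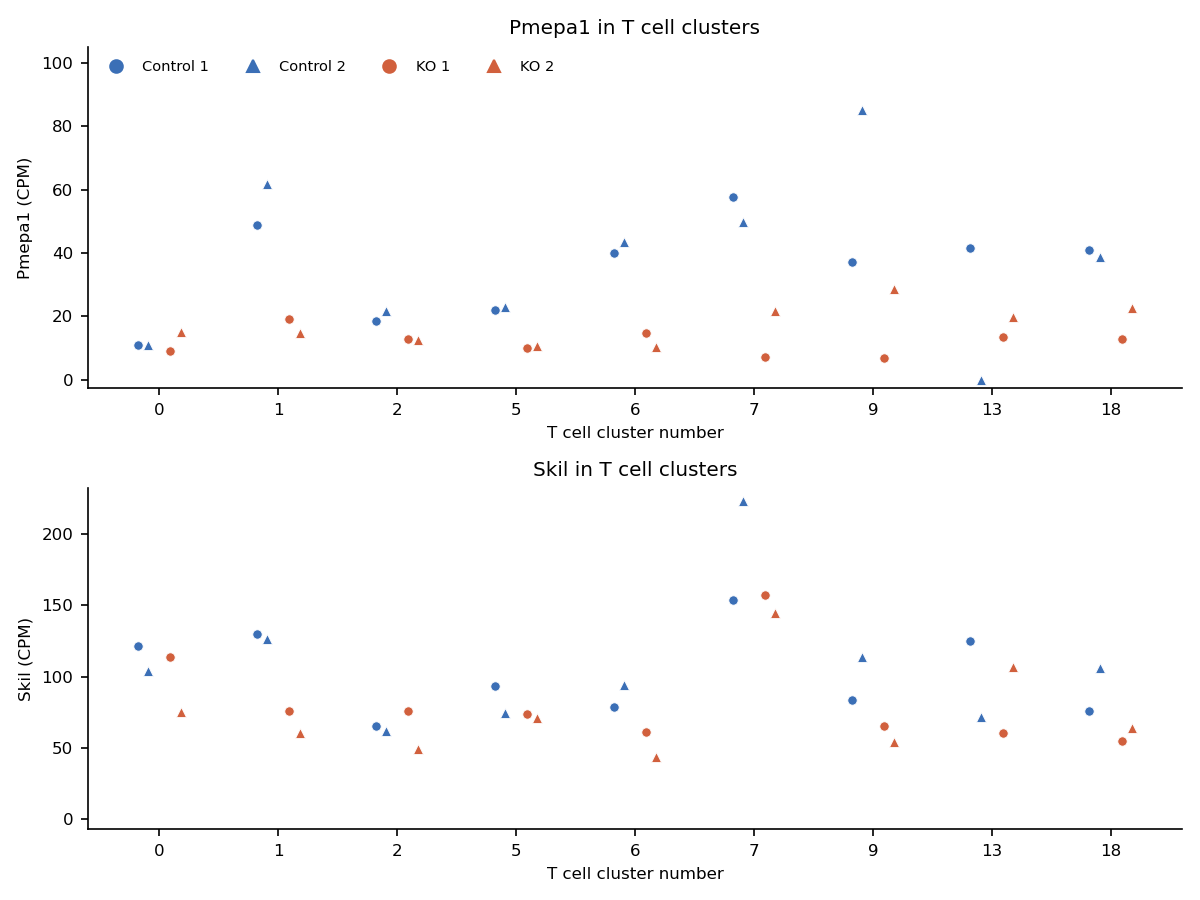
Pmepa1 (top) and Skil (bottom) in CPM in 9 T cell clusters (horizontal axis, cluster number), 1 point for each library, blue for Control and orange for KO. Both KO points lie below both Control points in 7 clusters for Pmepa1 and in 5 for Skil.

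Skil, which encodes the SMAD co-repressor SnoN and is itself a rapid TGF-beta target, came next in T cells. It was 101 and 102 CPM in Control and 69.2 and 67.0 CPM in KO, with replicates much closer to each other than to the other group. The log2 difference of -0.62 ± 0.13 did not pass the threshold (edgeR adjusted p = 0.0645; 95% interval -0.88 to -0.37). Of 13 alternatives it stayed uncalled in 9, among them DESeq2, without KO 1 and without KO 2 (adjusted p = 0.318, the highest of the 13). It passed without Control 1 (0.000273), without Control 2 (0.0145), with no filter (0.0137) and with the replicate block (0.00577). The difference lay between -0.68 and -0.54 in all 13. Cd8 T cells (76.2 and 95.5 against 60.7 and 60.2 CPM), Cd4 T cells (104 and 126 against 58.2 and 69.0 CPM) and gamma-delta T cells (121 and 92.6 against 60.6 and 63.2 CPM) each had both KO values below both Control values. The mean was lower in KO in 9 of 9 T cell clusters, which divide the same 4 libraries and are not replicates. Both KO values lay below both Control values in 5 of them. Neutrophils gave 167 and 219 against 77.0 and 84.7 CPM (-1.45 ± 0.42, adjusted p = 0.153). B cells did not move by more than their spread, at 148 and 143 against 142 and 148 CPM (-0.12 ± 0.13, adjusted p = 0.778). By class, Skil was highest on average in conventional dendritic cells (193 to 336 CPM) and was higher than the mean of the other classes in monocytes and macrophages (0.54 ± 0.12, adjusted p = 0.00038; 0.0812 with classes from clusters) and lower in T cells (-0.76 ± 0.12, adjusted p = 1.74e-06).

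Ski, the closest relative of Skil and also a SMAD co-repressor, showed little. T cells held 59.4 and 59.6 CPM in Control and 53.2 and 50.6 CPM in KO (-0.25 ± 0.13, edgeR adjusted p = 0.426), and B cells 19.6 and 18.9 against 27.4 and 24.2 CPM (0.31 ± 0.21, adjusted p = 0.605). Between classes it was higher in T cells (0.54 ± 0.10, adjusted p = 3.39e-05) and lower in B cells (-1.0 ± 0.13, adjusted p = 6.26e-08) than in the mean of the others. Skil and Ski thus had opposite signs in T cells when classes were compared.

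Smad3 and Smad7, the transducer and the inhibitory SMAD that blocks the receptor, peaked in different classes. Smad3 was highest in natural killer and innate lymphoid cells, at 32.6 and 38.0 CPM in Control and 52.1 and 56.3 CPM in KO, and above the mean of the other classes by 1.63 ± 0.18 (edgeR adjusted p = 4.87e-09). T cells held 21.2 and 20.3 against 24.5 and 28.7 CPM, and B cells 5.60 to 7.29 CPM, below stromal cells (15.4 and 21.2 CPM) and monocytes and macrophages (9.94 to 17.3 CPM). The KO values lay above the Control values in natural killer and innate lymphoid cells and in T cells, with differences of 0.44 ± 0.23 (adjusted p = 0.448) and 0.31 ± 0.15 (adjusted p = 0.369). Within conventional natural killer cells the groups overlapped, at 39.0 and 68.1 against 63.6 and 61.6 CPM. Smad7 was highest on average in plasmacytoid dendritic cells, at 351 and 326 CPM in Control and 481 and 312 CPM in KO, on 186 UMIs. In the Control libraries alone it was above the mean of the other classes there by 1.05 ± 0.19 (adjusted p = 5.8e-06). It was 294 and 312 against 269.8 and 312 CPM in T cells, and 59.0 and 66.3 against 44.2 and 40.3 CPM in monocytes and macrophages. The class difference was 1.30 ± 0.09 for T cells (adjusted p = 6.78e-14) and -1.83 ± 0.13 for monocytes and macrophages (adjusted p = 5.77e-14). Between KO and Control, Smad7 differed by -0.66 ± 0.24 in monocytes and macrophages (adjusted p = 0.233) and by -0.43 ± 0.17 in natural killer and innate lymphoid cells (278 and 278 against 221 and 237 CPM, adjusted p = 0.273). In T cells the difference was -0.11 ± 0.14 (adjusted p = 0.788; 95% interval -0.39 to 0.17). Smad7, like Pmepa1 and Skil, is a textbook TGF-beta target; whether its difference in T cells departs from theirs was not tested.

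**Figure D5:**
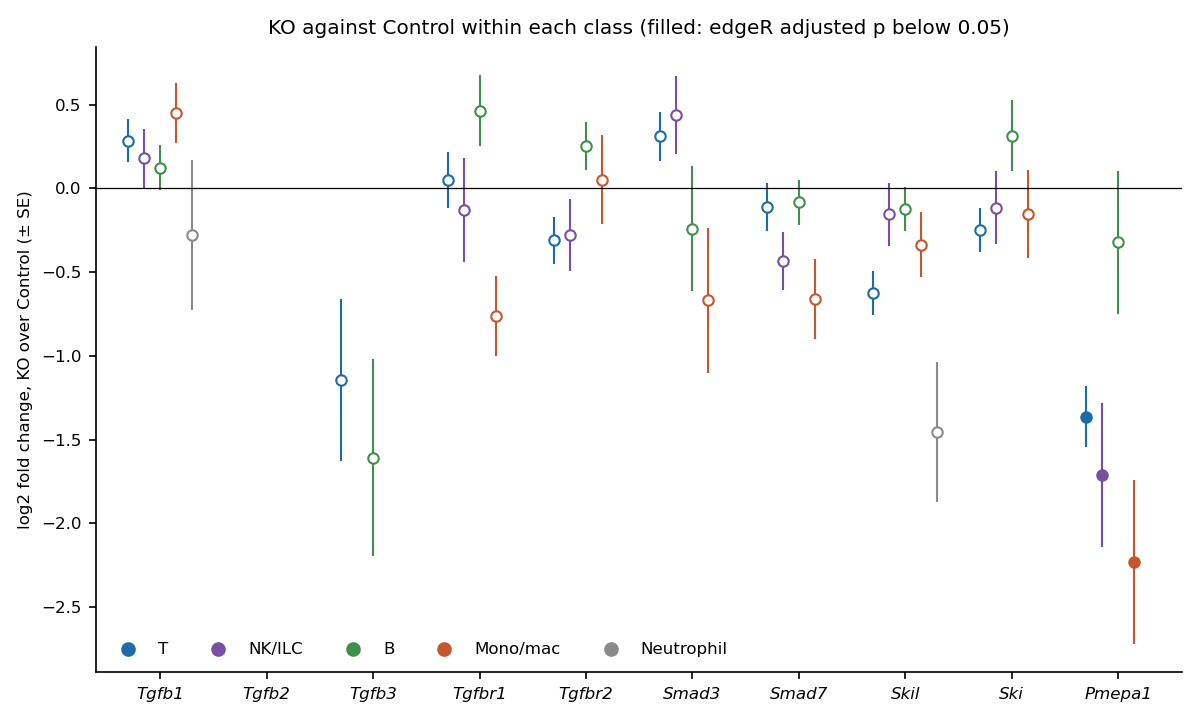
Log2 fold change of KO over Control (vertical axis, with SE as bars) for each gene (horizontal axis) in the 5 tested classes, by colour; filled points passed an edgeR adjusted p of 0.05, and pairs without a point failed the low-count filter. The 3 filled points are Pmepa1 in T cells, natural killer and innate lymphoid cells and monocytes and macrophages, at -1.36 to -2.23.

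In all, 36 pairs of gene and class could be tested, 3 were called lower in KO and none higher. At an unadjusted p below 0.05 there were 11 lower and 2 higher, beside 6.93% and 5.67% of all 38675 pairs, and DESeq2 called 1. In the subsets, 41 pairs gave 0 calls with edgeR and 0 with DESeq2, with 6 lower and 2 higher at the unadjusted threshold, which 5.69% and 5.32% of all pairs passed. The share of all genes called there, in either direction, was 0.216% in Cd8 T cells, 0.377% in Cd4 T cells, 3.84% in gamma-delta T cells, 0.0184% in conventional natural killer cells, 0.299% in type 1 innate lymphoid cells and 0.226% in classical monocytes. Tgfb3 passed the filter in T and B cells only, and neutrophils, with 55 to 193 cells a library, kept only Tgfb1 and Skil. In T cells, 9 of the 10 genes were tested, and their median log2 difference was -0.25 beside -0.0045 over all genes.

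Other genes of the pathway were taken from 7 lists with 95 genes beside these 10. In T cells, 59 were tested and none was called by edgeR, although 16 had an unadjusted p below 0.05, as did 14.6% of all genes. Their median log2 difference was -0.05. In natural killer and innate lymphoid cells, 46 were tested, and 2 were higher and 1 lower, all from the list of responsive leukocyte genes (14 tested), where 0.546% of all genes were called higher and 0.689% lower. Gzmb, a granzyme that TGF-beta represses, rose from 163 and 168 to 379 and 493 CPM (1.24 ± 0.18, adjusted p = 0.000152). Eomes, a transcription factor of natural killer cells, rose from 105.4 and 139.5 to 251 and 259 CPM (0.88 ± 0.18, adjusted p = 0.00802). Cxcr6, a chemokine receptor of liver-resident lymphocytes, fell from 99.7 and 81.5 to 50.8 and 54.0 CPM (-0.91 ± 0.20, adjusted p = 0.0166). Eomes lost its call without Control 1 (adjusted p = 0.143), and Cxcr6 in 6 of 12 alternatives. Conventional natural killer cells, which were a larger share of the class in KO, held 325 and 391 CPM of Gzmb in Control and 611 and 719.5 CPM in KO, and no listed gene was called within that subset by edgeR, with 7 at an unadjusted p below 0.05, as had 8.24% of all genes.

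In monocytes and macrophages, 44 of these genes were tested, 1 was higher and 4 were lower, where 0.452% of all genes were called higher and 1.48% lower. Rgs1, a regulator of G protein signalling, fell from 688 and 525 to 162 and 160.1 CPM (-2.0 ± 0.20, edgeR adjusted p = 9.84e-05). Dab2, an endocytic adaptor that binds SMAD proteins, fell from 30.5 and 26.4 to 1.10 and 0 CPM (-5.41 ± 0.69, adjusted p = 0.000696). Runx3, a transcription factor that acts with SMADs, fell from 73.2 and 73.1 to 34.2 and 39.1 CPM (-1.09 ± 0.24, adjusted p = 0.0278). Zfyve9, which encodes the SMAD anchor SARA, rose from 23.4 and 28.7 to 64.0 and 56.7 CPM (1.10 ± 0.26, adjusted p = 0.0394). C1q macrophages held 68.9 and 176 CPM of Dab2 in Control. With that subset left out, Rgs1 (-1.66, adjusted p = 0.00553) and Runx3 (-1.16, adjusted p = 0.0417) were still called and Zfyve9 was not (0.95, adjusted p = 0.153), while Dab2 (12 and 11 UMIs against 0 and 0) failed the filter. Runx3 and Zfyve9 were not called by DESeq2 (adjusted p = 0.282 and 0.444). Rgs1 was also lower within classical monocytes (272 and 192 against 44.5 and 112 CPM, -1.68 ± 0.31, adjusted p = 0.0359, with 0.193% of genes called lower) and in B cells (108 and 90.7 against 52.8 and 65.6 CPM, -0.83 ± 0.15, adjusted p = 0.0142, with 0.544% of genes called lower). The first of these was lost in 4 of 13 alternatives, among them DESeq2 (adjusted p = 1) and without KO 1 (0.0534), and the second without KO 1 (0.0906) or KO 2 (0.294).

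Neutrophils had 17 of the listed genes tested and 1 lower, Bhlhe40, from 167 and 116 to 17.1 and 9.41 CPM (-3.39 ± 0.68, edgeR adjusted p = 0.0145, with 0.652% of genes called lower). Its KO values rest on 2 and 1 UMIs, and DESeq2 gave an adjusted p of 0.266. In Cd8 T cells, Itga1, an integrin of tissue-resident cells, fell from 45.9 and 56.4 to 23.2 and 23.4 CPM (-1.23 ± 0.18, adjusted p = 0.034, with 0.0687% of genes called lower), a call lost without KO 1 (0.102) or KO 2 (0.528). Gamma-delta T cells had 4 lower and 2 higher of 33, where 1.81% of genes were called lower and 2.03% higher. Bhlhe40 fell from 246 and 262 to 44.6 and 90.6 CPM (-1.85 ± 0.29, adjusted p = 0.00134). Jun, a subunit of the AP-1 transcription factor, and Cxcr6 fell as well (log2 differences -0.87 and -0.94, adjusted p = 0.0165 and 0.0249). Eomes rose by 2.71 and Ifng by 1.79 (adjusted p = 0.00839 and 0.0381), from 6 and 30 UMIs in Control. Of these 5, Jun and Bhlhe40 were called by DESeq2 as well, and all but Bhlhe40 lost their call when 1 library or another was left out, Jun only without KO 2 (0.173). Eomes, Cxcr6 and Itga1 also served as markers of innate lymphoid subsets here.

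Over all kept cells, 28 of 90 listed genes were lower in KO and 1, Gzmb, was higher, where 7.58% of all genes were called lower and 1.48% higher. The lower ones included 6 of 7 tested responsive stromal genes, Col1a1, Col1a2, Col3a1, Acta2, Fn1 and Sparc, and 9 of 18 ligand, latency and activation genes. Without stromal cells 4 of 74 were lower, where 1.15% of all genes were. These were Id1, an inhibitor of differentiation known as a target of the BMP branch, from 28.9 and 20.8 to 8.49 and 7.68 CPM over all kept cells, Tgfbi, from 45.8 and 40.1 to 23.7 and 22.7 CPM, Dab2, and Acvrl1, a type I receptor of the family.

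For each gene, those whose Control levels were most alike over the 8 classes were found by Pearson correlation of log2(CPM + 1), as a description over classes that share libraries. Tgfb2 was closest to Gata6 (r = 0.999) and Loxl1 (0.999), Tgfb3 to Tmem237 (0.985) and Loxl2 (0.976), and Tgfb1 to Ubl3 (0.985) and Sft2d1 (0.978). Tgfbr1 was closest to Atp6ap2 (0.991) and Pip5k1c (0.961), Tgfbr2 to Bcl9l (0.979) and Cdr2 (0.974), Smad3 to Xylt2 (0.948) and Rnaseh2c (0.932), and Smad7 to Sh3gl1 (0.967) and Krit1 (0.965). Skil was closest to Pmaip1 (0.962) and Plbd1 (0.96), Ski to Eloc (0.921) and Slc9a3r1 (0.915), and Pmepa1 to Cep290 (0.979) and Alg5 (0.976). The points are few, and each class of 1 library shares its depth and handling with the others.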

How the data were processed

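Droplet single-cell RNA libraries of mouse liver, 2 Control and 2 KO, were analysed. The deposited values are raw counts of UMIs; Cell Ranger 3.1.0 and the mm10 build are named for them, per the submitters' processing notes. Kept cells had 500 or more UMIs, 250 or more genes and no more than 25% mitochondrial UMIs. Doublets were removed by Scrublet calls (scanpy 1.11.5) in KO 2 and, where it marked under 0.5% of cells, by the highest scores at 0.8% per 1000 barcodes. These rules took out 187 cells in Control 1, 418 in Control 2, 417 in KO 1 and 78 in KO 2. The share removed was thus smallest in KO 2. Each cell took the class with most detected markers (2 or more), and 10.1% stayed unassigned.

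Counts were summed per library and class and tested with edgeR 4.0.16 (quasi-likelihood, TMM, filterByExpr, Benjamini-Hochberg over all genes; threshold adjusted p 0.05), where every library had 20 or more cells. DESeq2 1.42.0, other scaling, no filter, other gates and cell filters, Leiden clusters (resolution 1) and left-out libraries were alternatives. Of the pathway lists, genes past the threshold are named, up to 4 per list and class with the smallest p, and for each of the 10 genes the 2 most alike over classes among genes with 200 or more UMIs. The tests were checked on simulated data. Whether libraries of a group came from separate animals is not stated in the labels; the p-values then reflect the scatter among these 4 libraries, which may be technical. Libraries of 1 group differed beyond sampling noise (chi-squared per degree of freedom 36.9 and 18.1). The 10 genes and all lists were chosen with earlier results of these data known. Some genes counted in the pathway lists are not reported here by name.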

Additional observations from a re-analysis of the deposited data

Results flagged for a closer look

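The KO effect on Tgfbr1 in B cells differed from the mean effect in the other 4 classes by 1.31 on the log2 scale, in a direct test of that difference (edgeR adjusted p = 0.0214). Both KO values in B cells (28.1 and 37.9 CPM) lay above both Control values (22.4 and 21.6 CPM), whereas monocytes and macrophages (67.1 and 62.9 against 39.7 and 41.6 CPM) and neutrophils (83.5 and 78.0 against 17.1 and 18.8 CPM) had both KO values below. The neutrophil values enter the mean of the other classes with 2 UMIs in each KO library, and within neutrophils alone the gene failed the low-count filter. The call was lost without Control 2 (adjusted p = 0.518), KO 1 (0.206) or KO 2 (0.913). With RLE scaling the adjusted p was 0.0513, with doublets kept 0.0579 and with classes from clusters 0.0833.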

How the results depend on the processing

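Of 2059 values recomputed under an alternative, 1928 stayed on the same side of the threshold, 102 lost a call and 28 gained one. Changes of sign between uncalled values were not counted apart and fall among the 1928. The remaining 1, Skil in neutrophils against the other classes, was a called value that changed sign. It was -0.043 without Control 2 and up to 0.69 with another library left out. The 3 lower calls within classes became 1 with DESeq2, 1 with at most 10% mitochondrial UMIs, 1 with doublets kept and 6 with the replicate block, and 1 to 4 with a library left out. The 0 calls in subsets became 3 with no filter, 2 with the replicate block, 1 with at most 10% mitochondrial UMIs, 1 with doublets kept and 0 to 4 with a library left out. The 3 lower calls over all cells became 1 without stromal cells and 0 to 3 with a library left out, and the 0 higher calls 0 to 1. The 7 lower pathway calls became 4 with DESeq2, 18 with no filter, 23 with the replicate block, 4 with at least 1000 UMIs and 5 to 21 with a library left out, and the 3 higher ones 1 with DESeq2, 5 with the replicate block and 3 to 9 with a library left out. The 1 difference between classes became 0 with RLE scaling, doublets kept or clusters and 0 to 3 with a library left out. The cause was not tested. The labels name nothing that pairs the samples by replicate number, and the main fits did not pair them. Deviations of same-numbered libraries correlated over genes at -0.06 in neutrophils and at 0.09 to 0.14 in the other tested classes. Whether same-numbered libraries share a batch cannot be told from these values. Low counts limit Tgfb2, Tgfb3 and Pmepa1 outside T cells.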
